A study of Mus musculus with 8 samples.

Results

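Open chromatin at 9 genes for chemokine receptors of inflamed tissue was described: Ccr1, Ccr2, Ccr3, Ccr4, Ccr6, Ccr8, Cx3cr1, Cxcr3 and Cxcr6. The members are all regions that the deposited count table assigns to one of these genes, taken once for each distinct position, and they come to 28 of 46624 regions. The rule uses no measured value, but the genes were chosen with earlier results of these data known. The assay was ATAC-seq, in which a transposase cuts accessible DNA and leaves sequencing adapters there, so that the read count of a region reflects how open it was. The series asks how regulatory T cells (Tregs) in visceral adipose tissue (VAT) differ in their chromatin between the sexes.

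There were 8 libraries in 4 groups of 2: Tregs of male spleen, Tregs of male VAT, Tregs of female VAT, and CD4+ T cells of male VAT that were negative for the reporter (called CD4 cells here). All mice were C57BL/6 and carried a red fluorescent protein reporter in Foxp3 (Foxp3RFP), the gene of the factor that defines Tregs. Tregs were sorted as RFP+ and CD4 cells as RFP-, cells of 3 mice were pooled for each library, and no age is given in the labels. Female spleen Tregs and female CD4 cells were not analysed here, so that female VAT Tregs and male spleen Tregs differ in sex and tissue at once. Spleen of females is mentioned in the series' design as well, but each spleen library here is labelled male. The median log2 fold change of X-linked regions was 0.05 for male VAT against spleen Tregs and 0.64 for female VAT against spleen Tregs. Whether the libraries of a group came from separate sorts is not stated, and the p-values measure only the spread between these pools.

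Chemokine receptors are G protein-coupled receptors that steer leukocytes along gradients of small secreted proteins. The inflammatory receptors are switched on when T cells become effector or tissue cells, while CCR7, CXCR5 and CXCR4 guide cells to and within lymphoid organs and bone marrow. Tregs that live in fat carry receptors of the first kind, and their chemokines are made by fat cells, stroma and macrophages of that tissue.

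Of the 9 genes, 7 lie on chromosome 9, Ccr6 lies on chromosome 17 and Cxcr3 on chromosome X (mouse build mm10, GRCm38). Only 8 of the 28 regions lay over the body of a member gene, and 8 were also listed under a second gene. Widths fell into 2 kinds, 20 regions under 1000 bp with a median of 134 bp and 8 regions of 1000 bp or more with a median of 3605 bp. A region over the bases just before a transcription start was found for Ccr1, Ccr4, Ccr6, Ccr8 and Cxcr6, and for none of Ccr2, Ccr3, Cx3cr1 and Cxcr3.

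These promoter stretches are shown because they are where a counted region and an annotated start of a receptor gene coincide. The starts used at Ccr4 and Ccr6 lie inside the annotated span of these genes, and Ccr6 has 2 starts. They are RefSeq sequence (GRCm38.p6), read 5′ to 3′ on the gene's strand and cut to the bases before the start that lay inside the counted region. Capitals mark the match to a T cell factor motif.
Ccr1, chr9:123968693-123968829, minus strand: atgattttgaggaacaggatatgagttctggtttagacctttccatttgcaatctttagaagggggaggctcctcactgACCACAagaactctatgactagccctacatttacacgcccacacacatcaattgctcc
Ccr4, chr9:114496545-114496794, minus strand: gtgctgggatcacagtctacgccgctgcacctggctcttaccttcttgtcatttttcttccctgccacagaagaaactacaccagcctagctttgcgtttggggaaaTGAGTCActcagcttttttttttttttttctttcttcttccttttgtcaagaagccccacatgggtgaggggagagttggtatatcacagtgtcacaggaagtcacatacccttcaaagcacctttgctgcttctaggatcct
Ccr6, chr17:8242401-8242503, plus strand: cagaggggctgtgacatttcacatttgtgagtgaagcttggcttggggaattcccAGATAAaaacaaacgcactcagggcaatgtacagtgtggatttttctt
Ccr8, chr9:120091883-120092132, plus strand: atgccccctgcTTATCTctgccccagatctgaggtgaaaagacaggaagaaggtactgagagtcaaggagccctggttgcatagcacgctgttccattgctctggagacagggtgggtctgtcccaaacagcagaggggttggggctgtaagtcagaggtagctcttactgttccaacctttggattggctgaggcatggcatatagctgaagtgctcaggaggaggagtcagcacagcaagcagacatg
Cxcr6, chr9:123806417-123806476, plus strand: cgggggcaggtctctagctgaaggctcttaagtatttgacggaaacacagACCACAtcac

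Both strands were searched for set letters of AP-1, GATA, RUNX, T-box, ETS and ROR motifs. Ccr4 held the AP-1 letters TGANTCA, 143 bases before its start. Ccr6 and Ccr8 held the GATA letters AGATAA, read on the other strand at Ccr8, 70 and 239 bases before their starts. Ccr1 and Cxcr6 held the RUNX letters TGTGGT on the other strand, 58 and 10 bases before. Among 32851 RefSeq promoter windows of 250 bases, these letters stood in 6.75% (AP-1), 9.99% (GATA) and 14.0% (RUNX). None of the 5 stretches held the T-box letters AGGTGTNA, the ETS letters CCGGAAGT or the ROR letters TAGGTCA, which stood in 2.68%, 2.88% and 2.23% of the windows. A match is a description of letters and not a binding site, and the Ccr1, Ccr6 and Cxcr6 stretches are shorter than the windows.

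Counts per library ran from 5722254 to 15798875, and levels are given as CPM, the count scaled to the library total, after TMM scaling. Of the 28 regions, 26 passed the filter on low counts and were tested with edgeR's quasi-likelihood test, Benjamini-Hochberg adjusted over all 45709 regions that passed. Calls were made below an adjusted p of 0.05, and the ± after a log2 fold change is its standard error. Male VAT Treg replicate 1 had 5.55% of its reads in regions under 1000 bp, against 3.6 to 4.37% in the other 7 libraries. Its summed member level was 261.4 CPM, against 174.2 CPM in male VAT Treg replicate 2 and 160.0 to 243.0 CPM elsewhere. Beside each receptor region called in male VAT Tregs, the value without this library is given.

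The region chrX:7582209-7585993, assigned to Foxp3 and 2 neighbours, held 16.4 ± 3.43 CPM (SD, n = 2) in male VAT Tregs and 1.85 ± 0.440 CPM in CD4 cells (log2 fold change 3.12 ± 0.31, edgeR adjusted p = 3.31e-18). It held 29.99 ± 4.05 CPM in female VAT Tregs and 13.57 ± 0.017 CPM in spleen Tregs. Male VAT Tregs were lower than female VAT Tregs (log2 fold change -0.86 ± 0.20, edgeR adjusted p = 0.00286). That call was lost without female replicate 2 or male VAT Treg replicate 2. Female VAT Tregs were above spleen Tregs (1.14 ± 0.21, edgeR adjusted p = 2.79e-05), a call that held without any 1 library. The X-linked medians of these comparisons were -0.59 and 0.64. Regions of myeloid marker genes, 5 of 8 of which had a region, summed to 134 to 183 CPM in male VAT Tregs and 158 to 191 CPM in the other groups. Lyz2, Adgre1 and Csf1r had no region in the table, and none of the marker genes with a region was at 0 in any library. In bulk ATAC-seq, fewer cells with an open region and a region less open in every cell cannot be told apart.

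The comparison of male VAT Tregs with CD4 cells of the same tissue had the most calls at these receptors. Regions at Ccr8, between Cx3cr1 and Ccr8, at Ccr6 and at Ccr1 were higher in Tregs, and the region just past Cxcr6 was lower. In counts, 6 of 26 regions were higher and 1 was lower. Over all regions tested, 5.18% were higher and 2.51% lower, and among regions under 1000 bp, as 18 of the 26 are, 10.3% and 3.73%. Among regions of 1000 bp or more, 2.35% were higher and 1.82% lower. To these belong the called regions over Ccr8, between Cx3cr1 and Ccr8, 24.2 kb upstream of Ccr6 and past Cxcr6, and the 3747 bp Ccr1 region. The median log2 fold change of the 26 was 0.27, beside -0.02 over all regions. Without male VAT Treg replicate 1, no member region was called higher and the Cxcr6 region alone was still called. Without CD4 replicate 1, 1 region was higher and 1 lower.

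CCR8 is the receptor for the chemokine CCL1 and is carried by Tregs of skin, fat and tumours. Its region of 3795 bp, chr9:120089997-120093791, covers the promoter printed above and the first part of the gene, and the table lists it under Slc25a38 as well. It held 28.45 and 15.36 CPM in male VAT Treg libraries, 23.24 and 24.53 in female VAT Treg libraries, 18.67 and 17.26 in spleen Treg libraries, and 9.24 and 11.39 in CD4 cells. Both CD4 libraries lay below all 6 Treg libraries. Male VAT Tregs were 2.14-fold above CD4 cells (log2 fold change 1.10 ± 0.23, edgeR adjusted p = 0.000106, and 0.56 with an adjusted p of 0.258 without male VAT Treg replicate 1). Against spleen Tregs the log2 difference was 0.31 ± 0.20 in male VAT Tregs (edgeR adjusted p = 0.422) and 0.41 ± 0.20 in female VAT Tregs (adjusted p = 0.509), and neither passed.

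Cx3cr1 and Ccr8 are neighbours that point away from each other, so the DNA between their starts is upstream of both. CX3CR1 is the receptor for fractalkine and is best known from monocytes, microglia and effector T cells. The region chr9:120073266-120076106, 4.97 kb before the Cx3cr1 start and 16.0 kb before the Ccr8 start, held 26.55 and 17.91 CPM in male VAT Treg libraries, 20.75 and 20.18 in female VAT Treg libraries, 12.24 in each spleen Treg library, and 6.74 and 13.27 in CD4 cells. All 4 VAT Treg libraries lay above both spleen libraries and both CD4 libraries. The region was called in each comparison of VAT Tregs with another cell group.

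Against spleen Tregs its log2 fold change was 0.87 ± 0.21 in male VAT Tregs (edgeR adjusted p = 0.00163) and 0.74 ± 0.21 in female VAT Tregs (edgeR adjusted p = 0.043). Against CD4 cells it was 1.13 ± 0.23 in male VAT Tregs (edgeR adjusted p = 6.96e-05). Without male VAT Treg replicate 1 the male values were 0.55 against spleen (adjusted p = 0.192) and 0.80 against CD4 cells (adjusted p = 0.0594). The call against spleen was also lost without spleen replicate 2 (adjusted p = 0.0551), and the call against CD4 cells without CD4 replicate 1 (adjusted p = 0.0922). The male call against spleen was also lost with TMM factors from short regions (adjusted p = 0.0772). The female call was lost in 12 of 20 alternatives. It failed when any 1 of its 4 libraries was left out, with adjusted p from 0.276 to 0.444, and under 8 other settings, with adjusted p from 0.0509 (limma-voom) to 0.388 (DESeq2).

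The other 2 regions assigned to Cx3cr1 were not called. The region chr9:120052967-120057033 inside the Cx3cr1 gene held 24.52 and 18.23 CPM in male VAT Treg libraries, 28.33 and 24.88 in female VAT Treg libraries, 16.61 and 22.81 in spleen Treg libraries, and 14.06 and 22.07 in CD4 cells, and it was called in no comparison. A region of 77 bp between the 2 genes, chr9:120082843-120082919, held 1.93 and 2.02 CPM in CD4 cells and at most 1.29 CPM in any Treg library. It too was not called, with a log2 difference of -1.06 ± 0.70 between male VAT Tregs and CD4 cells (edgeR adjusted p = 0.479).

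CCR6, the receptor for CCL20, marks Th17 cells and many tissue Tregs. The region chr17:8208960-8211818, 24.2 kb upstream of the gene, held 13.43 and 10.13 CPM in male VAT Treg libraries, 14.46 and 12.20 in female VAT Treg libraries, 12.73 and 12.90 in spleen Treg libraries, and 5.58 and 6.06 in CD4 cells. The 3 Treg groups overlapped and both CD4 libraries lay well below them. Male VAT Tregs were 2.03-fold above CD4 cells (log2 fold change 1.02 ± 0.26, edgeR adjusted p = 0.00352). Leaving out male VAT Treg replicate 1 gave a log2 fold change of 0.79 (adjusted p = 0.145), and without CD4 replicate 1 the adjusted p was 0.0568. It was also lost with TMM factors from short regions (adjusted p = 0.0813).

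The short regions of Ccr6 also had their lowest levels in CD4 cells, at low counts. The promoter stretch printed above, whole as counted, held 37 and 8 reads in male VAT Treg libraries, 11 and 9 in female VAT Treg libraries, 12 and 19 in spleen Treg libraries, and 0 and 3 in CD4 cells. The reads of both libraries of a group were added for a ratio whose interval covers counting error alone and not the spread between libraries. No molecular identifiers were used. At library depth, male VAT Tregs held 7.23 times the reads of CD4 cells at this stretch (exact 95% interval 2.32 to 36.4). It was called (edgeR adjusted p = 0.0456), and the call was lost in 12 of 19 alternatives, with a log2 fold change of 1.76 and an adjusted p of 0.565 without male VAT Treg replicate 1. A region of 79 bp inside the gene, chr17:8240230-8240308, held 22 and 35 reads in spleen Treg libraries, 22 and 5 in male VAT Treg libraries, 10 and 5 in female VAT Treg libraries, and 0 and 3 in CD4 cells, and was not called in any comparison.

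CXCR6 binds CXCL16 and is a receptor of resident and effector T cells. The gene lies inside the longer gene Fyco1, and the region chr9:123812793-123816255 begins 1.04 kb past the end of Cxcr6. This region lies over Fyco1, under which it is listed as well, and 6.32 kb from the Cxcr6 start. It held 15.41 and 19.76 CPM in CD4 cells, against 8.05 and 5.65 in male VAT Treg libraries, 6.88 and 9.86 in female VAT Treg libraries, and 8.37 and 10.99 in spleen Treg libraries. Both CD4 libraries lay above all 6 Treg libraries. Relative to CD4 cells, male VAT Tregs were 2.54-fold lower (log2 fold change -1.34 ± 0.24, edgeR adjusted p = 7.33e-06). This was the only called member region that passed in all 20 alternative fits, where its log2 fold change ran from -1.64, without male VAT Treg replicate 1, to -1.14.

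The promoter region of Cxcr6, chr9:123806417-123806668, held 4.24 and 6.63 CPM in CD4 cells, 5.13 and 2.13 in male VAT Treg libraries, 2.29 and 1.99 in female VAT Treg libraries, and 1.33 and 3.05 in spleen Treg libraries. CD4 cells overlapped male VAT Tregs through replicate 1 alone. The log2 difference was -0.55 ± 0.39 (edgeR adjusted p = 0.518), which did not pass.

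**Figure D1:**
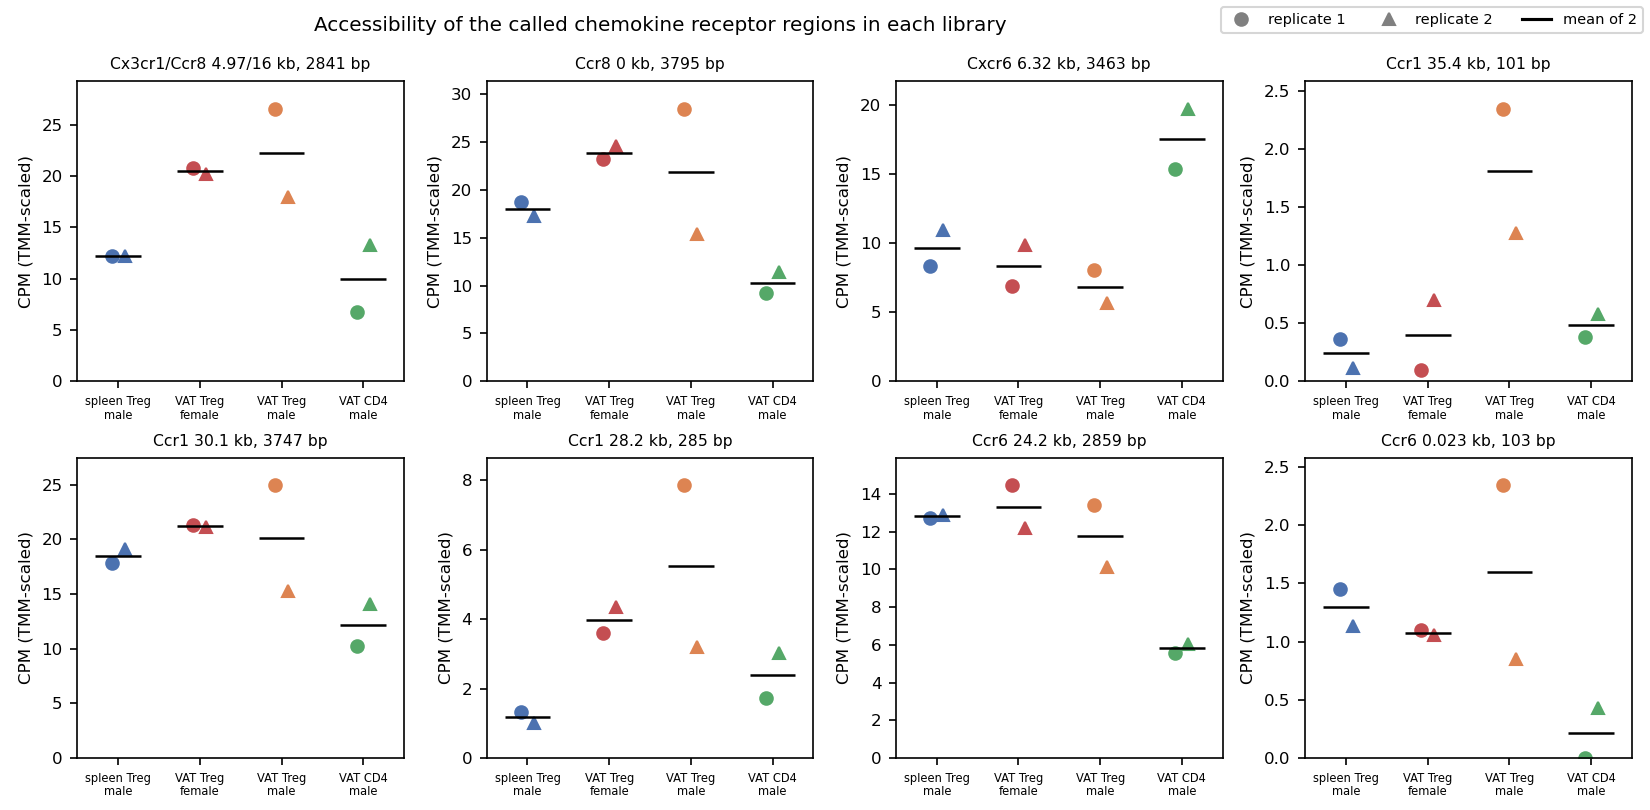
CPM after TMM scaling (vertical axes, starting at 0) in each of 8 libraries for the 8 receptor regions called in at least 1 comparison, with circles for replicate 1, triangles for replicate 2 and lines for the mean of 2. The Cxcr6 panel alone has CD4 cells on top, at 15.41 and 19.76 CPM, and in every panel the circle of male VAT Tregs stands above its triangle.

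Across the 26 regions, both CD4 libraries lay below all 6 Treg libraries in 7, at Ccr6 (3 regions), Cxcr3 (2), Ccr8 and Ccr1, where 7.56% of all regions did so. They lay above all 6 in 2, the region past Cxcr6 and the 77 bp region between Cx3cr1 and Ccr8, where 7.47% did so. Between male VAT Tregs and CD4 cells, 12 of 26 regions had both Treg libraries above both CD4 libraries and 3 had both below, beside 21.0% and 20.7% of all regions and 34.0% and 16.8% of those under 1000 bp.

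CCR1, a receptor for CCL3 and CCL5 best known from neutrophils and monocytes, had the most regions, 11 of the 28. Only 1 of them touched the gene, and 8 lay together within 21.0 kb on the far side of its 3′ end, 20.5 to 33.3 kb away. The region chr9:123940201-123940485 in that group, 285 bp wide, was called in the same 3 comparisons as the region between Cx3cr1 and Ccr8. It held 7.86 and 3.20 CPM in male VAT Treg libraries, 3.59 and 4.34 in female VAT Treg libraries, 1.33 and 1.02 in spleen Treg libraries, and 1.73 and 3.03 in CD4 cells. Every VAT Treg library lay above every spleen Treg and CD4 library.

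Against spleen Tregs this region was higher in male VAT Tregs (log2 fold change 2.31 ± 0.42, edgeR adjusted p = 7.42e-06) and in female VAT Tregs (1.78 ± 0.44, edgeR adjusted p = 0.00786). Against CD4 cells the male value was 1.22 ± 0.42 (edgeR adjusted p = 0.0478). Without male VAT Treg replicate 1 the male values were 1.48 against spleen (adjusted p = 0.0998) and 0.39 against CD4 cells (adjusted p = 0.831). The female call was lost without spleen replicate 2 (adjusted p = 0.222), female replicate 1 (0.0532) or female replicate 2 (0.187), as well as with TMM factors from short regions (0.0565) and DESeq2 (0.139). The call against CD4 cells was lost in 12 of 20 alternatives.

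Its neighbours had other orders of the groups. The region chr9:123933179-123933279, 101 bp wide, held 37 and 12 reads in male VAT Treg libraries against 3 and 2 in spleen Treg libraries, 1 and 6 in female VAT Treg libraries and 2 and 4 in CD4 cells. Male VAT Tregs stood above all other libraries there, and the region was called against spleen (log2 fold change 3.08 ± 0.86, edgeR adjusted p = 0.0105) but not against CD4 cells (1.89 ± 0.85, adjusted p = 0.193). Without male VAT Treg replicate 1 the log2 fold change against spleen was 2.52 (adjusted p = 0.242), and without spleen replicate 2 the adjusted p was 0.215. The call was also lost with loess offsets (adjusted p = 0.127), DESeq2 (0.0997) and limma on the deposited log2 values (0.144).

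The region chr9:123934891-123938637, 3747 bp wide, held 24.96 and 15.25 CPM in male VAT Treg libraries, 21.34 and 21.12 in female VAT Treg libraries, 17.82 and 19.17 in spleen Treg libraries, and 10.21 and 14.14 in CD4 cells. CD4 cells lay below every Treg library, and the region was called between male VAT Tregs and CD4 cells (log2 fold change 0.73 ± 0.22, edgeR adjusted p = 0.02). It was not called without male VAT Treg replicate 1 (log2 fold change 0.31, adjusted p = 0.649) or without CD4 replicate 1 (adjusted p = 0.365). The call was lost in 6 of 20 alternatives, the others being TMM factors from short regions (adjusted p = 0.205), the 2 groups alone (0.068), DESeq2 (0.113) and limma-voom (0.0576).

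One Ccr1 region had the opposite order. At chr9:123941495-123941626, only 1.01 kb from the 285 bp region, spleen Tregs held 4.12 and 3.34 CPM and the other 6 libraries held 1.35 to 1.70 CPM. The log2 difference between male VAT and spleen Tregs was -1.30 ± 0.47 and did not pass (edgeR adjusted p = 0.0744). It passed with TMM factors from the regions under 1000 bp (-1.48, adjusted p = 0.0328) and with loess offsets (-1.40, adjusted p = 0.0373).

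The largest member region, 8257 bp at chr9:123920581-123928837 over the long noncoding RNA gene Gm51701, held 46.71 to 72.29 CPM in all 8 libraries and was called in no comparison. Of the remaining Ccr1 regions, 4 more were tested, with 0.43 to 7.32 CPM per library, and none was called. The filter removed the other 2, and in both of them male VAT Treg replicate 1 held more reads than any other library. The promoter region printed above in part, chr9:123968679-123968829, held 48 and 10 reads in male VAT Treg libraries, 8 and 11 in spleen Treg libraries, 10 and 7 in female VAT Treg libraries, and 6 and 1 in CD4 cells. The region chr9:123957911-123957991 held 31 and 3 reads in male VAT Treg libraries, 6 and 9 in spleen Treg libraries, 2 and 2 in female VAT Treg libraries and 0 in both CD4 libraries. With no filter on low counts the second was called between male VAT Tregs and CD4 cells (edgeR adjusted p = 0.0194), and the promoter region in no comparison.

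**Figure D2:**
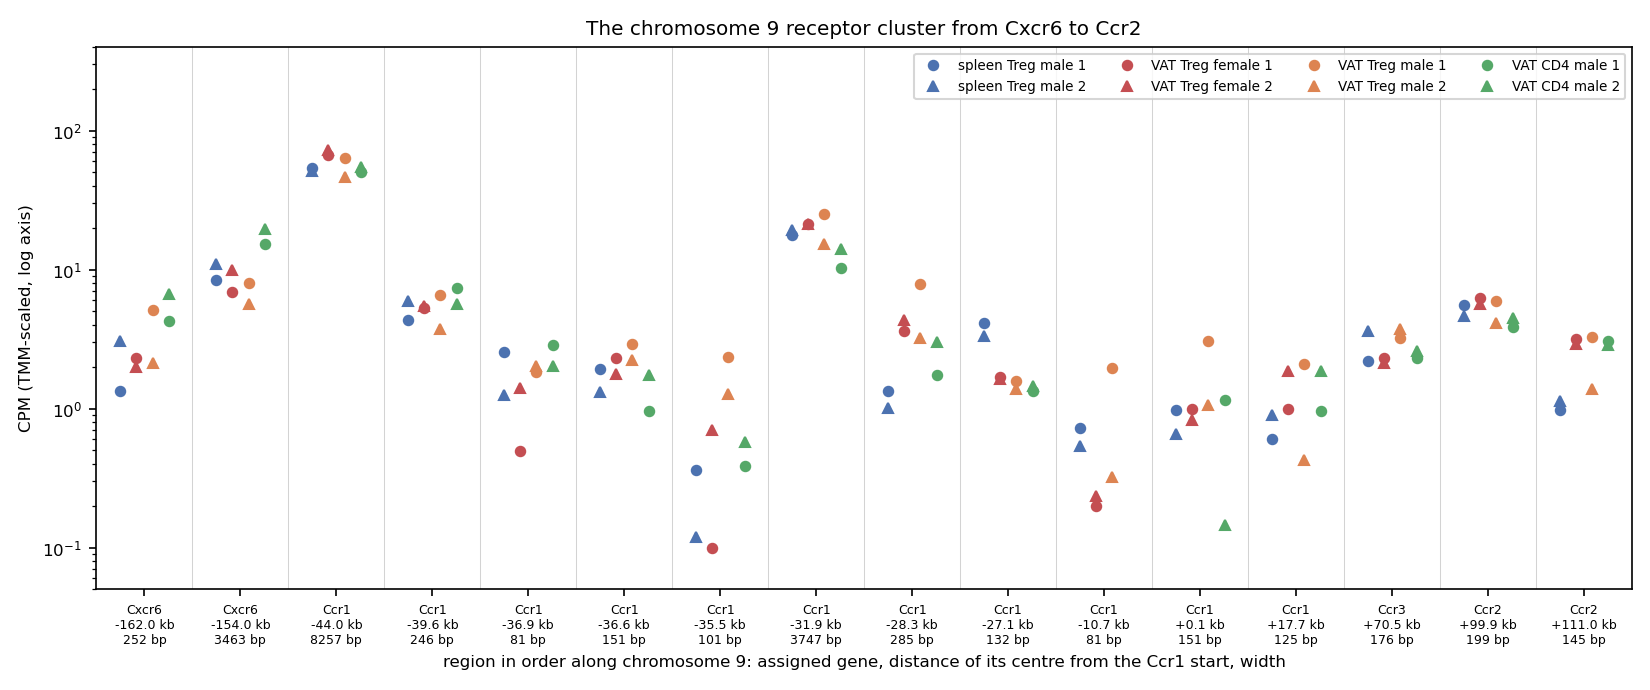
CPM after TMM scaling (vertical log axis) of the 16 regions from Cxcr6 to Ccr2 in order along chromosome 9, labelled by assigned gene, distance from the Ccr1 start in kb and width, with 1 point per library coloured by group (a library at 0 is not drawn). The region at -28.3 kb has all 4 VAT Treg libraries on top, the next at -27.1 kb has both spleen libraries on top, and the Cxcr6 region at -154.0 kb has both CD4 libraries on top.

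The receptor cluster on chromosome 9 held 16 of the member regions over 274 kb, and 13 of them were under 1000 bp. Against spleen Tregs some neighbours differed in sign, as did the 285 bp Ccr1 region and the uncalled region 1.01 kb from it. Going from Cxcr6, the first called region was lower in male VAT Tregs than in CD4 cells, the Ccr1 group behind the gene held 3 regions called higher in at least 1 comparison, and the regions at Ccr3 and Ccr2 held none. Of the 14 that were tested, 2 were called higher and 0 lower between male VAT and spleen Tregs, and 2 higher and 1 lower between male VAT Tregs and CD4 cells. Over all regions, 4.64% were higher and 2.09% lower in the first comparison, and 5.18% and 2.51% in the second. Among regions under 1000 bp, 10.2% and 10.3% were higher, and among longer ones 1.54% and 2.35%.

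CCR2 is the CCL2 receptor that brings monocytes, and also Tregs, into inflamed fat, and CCR3 is the eotaxin receptor of eosinophils. The gene bodies of both were not covered by a member region. The Ccr2 region nearer to the gene, chr9:124079848-124079992, lay 21.9 kb upstream. It held 0.97 and 1.13 CPM in spleen Treg libraries, 3.29 and 1.39 in male VAT Treg libraries, 3.19 and 2.93 in female VAT Treg libraries, and 3.08 and 2.88 in CD4 cells. Spleen Tregs lay below all 6 VAT libraries, and the log2 difference was 1.18 ± 0.49 in male VAT Tregs (edgeR adjusted p = 0.145) and 1.51 ± 0.50 in female VAT Tregs (adjusted p = 0.119), so that neither passed. It passed in males without male VAT Treg replicate 2 (adjusted p = 0.0365), as did the Ccr8 promoter region (adjusted p = 0.0275).

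The other Ccr2 region, chr9:124068476-124068674, held 3.85 to 6.28 CPM in all libraries. Its log2 difference between male VAT and spleen Tregs was 0.02, with 2 standard errors reaching from -0.59 to 0.63. The Ccr3 region chr9:124039069-124039244, 7.38 kb past the gene, held 3.23 and 3.73 CPM in male VAT Treg libraries, 2.29 and 2.11 in female VAT Treg libraries, 2.18 and 3.64 in spleen Treg libraries, and 2.31 and 2.60 in CD4 cells. It was not called, and the widest difference was 0.65 ± 0.43 between male and female VAT Tregs (edgeR adjusted p = 0.559).

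CCR4, the receptor for CCL17 and CCL22, is carried by Tregs and by cells that home to skin. Its promoter region, chr9:114495123-114498329, overlapped between all groups, with 10.96 and 10.02 CPM in male VAT Treg libraries, 8.78 and 13.73 in female VAT Treg libraries, 10.43 and 12.36 in spleen Treg libraries, and 10.40 and 10.96 in CD4 cells. The log2 difference between male VAT Tregs and CD4 cells was -0.02, with 2 standard errors from -0.52 to 0.47. The 2 short regions at Ccr4 held 0.35 to 3.16 CPM and were not called.

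CXCR3, the receptor for CXCL9 and CXCL10, is the receptor of Th1 cells, and its gene is X-linked. Its 2 regions lay 3.10 and 3.40 kb upstream. At chrX:101737250-101737392, female VAT Tregs held 4.09 and 3.99 CPM, spleen Tregs 4.36 and 4.06, male VAT Tregs 2.22 and 2.13, and CD4 cells 1.54 and 1.88. At chrX:101737550-101737670, female VAT Tregs held 3.69 and 3.17 CPM, spleen Tregs 1.45 and 1.91, male VAT Tregs 1.71 in each library, and CD4 cells 1.16 and 1.30.

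The 2 Cxcr3 regions had the same order of the sexes in VAT and differed in the level of spleen Tregs. Male VAT Tregs lay below female VAT Tregs by log2 -0.89 ± 0.41 (edgeR adjusted p = 0.282) and -1.003 ± 0.48 (adjusted p = 0.318), where the median of all X-linked regions was -0.59. Neither passed. Against spleen Tregs, labelled male, the log2 differences of male VAT Tregs were -0.94 ± 0.40 (edgeR adjusted p = 0.151) and -0.01 ± 0.49 (adjusted p = 0.995).

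The comparison of male with female VAT Tregs is the one the series was made for, and no receptor region was called in it. That is 0 of 26 higher and 0 lower, where 2.04% of all regions were higher and 1.21% lower. DESeq2 and limma-voom also called none. In simulated data for this comparison, 63 of 100 changes of 2-fold and 97 of 100 of 4-fold were recovered. They were set at regions above a minimum count that some short member regions did not reach, so real differences could be missed. The simulated spread followed its trend over the count alone, without each region's own spread. It also lacked the excess of short-region reads in male VAT Treg replicate 1, so recovery in the real libraries may be lower. At an unadjusted p under 0.05 edgeR had 2 regions higher in males, the 101 bp Ccr1 region (log2 2.23 ± 0.81, adjusted p = 0.119) and a Ccr4 region shared with Trim71 (2.00 ± 0.79, adjusted p = 0.166), and the 2 Cxcr3 regions lower. The fit of these 2 groups alone called the 101 bp Ccr1 region (adjusted p = 0.0302).

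By position of the libraries alone, 4 of 26 regions had both male VAT Treg libraries above both female ones and 6 had both below, beside 20.8% and 20.5% of all regions. At the 285 bp Ccr1 region, male and female VAT Tregs differed by log2 0.52 ± 0.37 (edgeR adjusted p = 0.603), and between Cx3cr1 and Ccr8 by 0.13 ± 0.20 (adjusted p = 0.874). The 2 female libraries lay between the 2 male ones in both.

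Between male VAT and male spleen Tregs, 3 of 26 regions were higher and 0 lower, beside 4.64% and 2.09% of all regions, and 10.2% higher among regions under 1000 bp, to which 2 of the 3 belong. Between female VAT and male spleen Tregs, 2 of 26 were higher and 0 lower, beside 1.18% and 0.197%. Those 2, between Cx3cr1 and Ccr8 and at Ccr1, were also called in males, but the comparisons share the spleen libraries. Without spleen replicate 2, only 1 region was called in males and 0 in females, and without either female library 0 were called in females. All 4 VAT Treg libraries lay above both spleen libraries in 4 regions and below both in 2, beside 10.2% and 10.7% of all regions.

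Both libraries of male VAT Tregs lay above both of spleen Tregs in 6 regions and below in 5, where 22.7% and 23.1% of all regions did so. For female VAT Tregs these counts were 11 and 4, beside 20.9% and 21.0%. Among the 18 short regions tested, male VAT Treg replicate 1 was the highest of 8 libraries in 7, and it was so in 28.9% of all short regions.

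**Figure D3:**
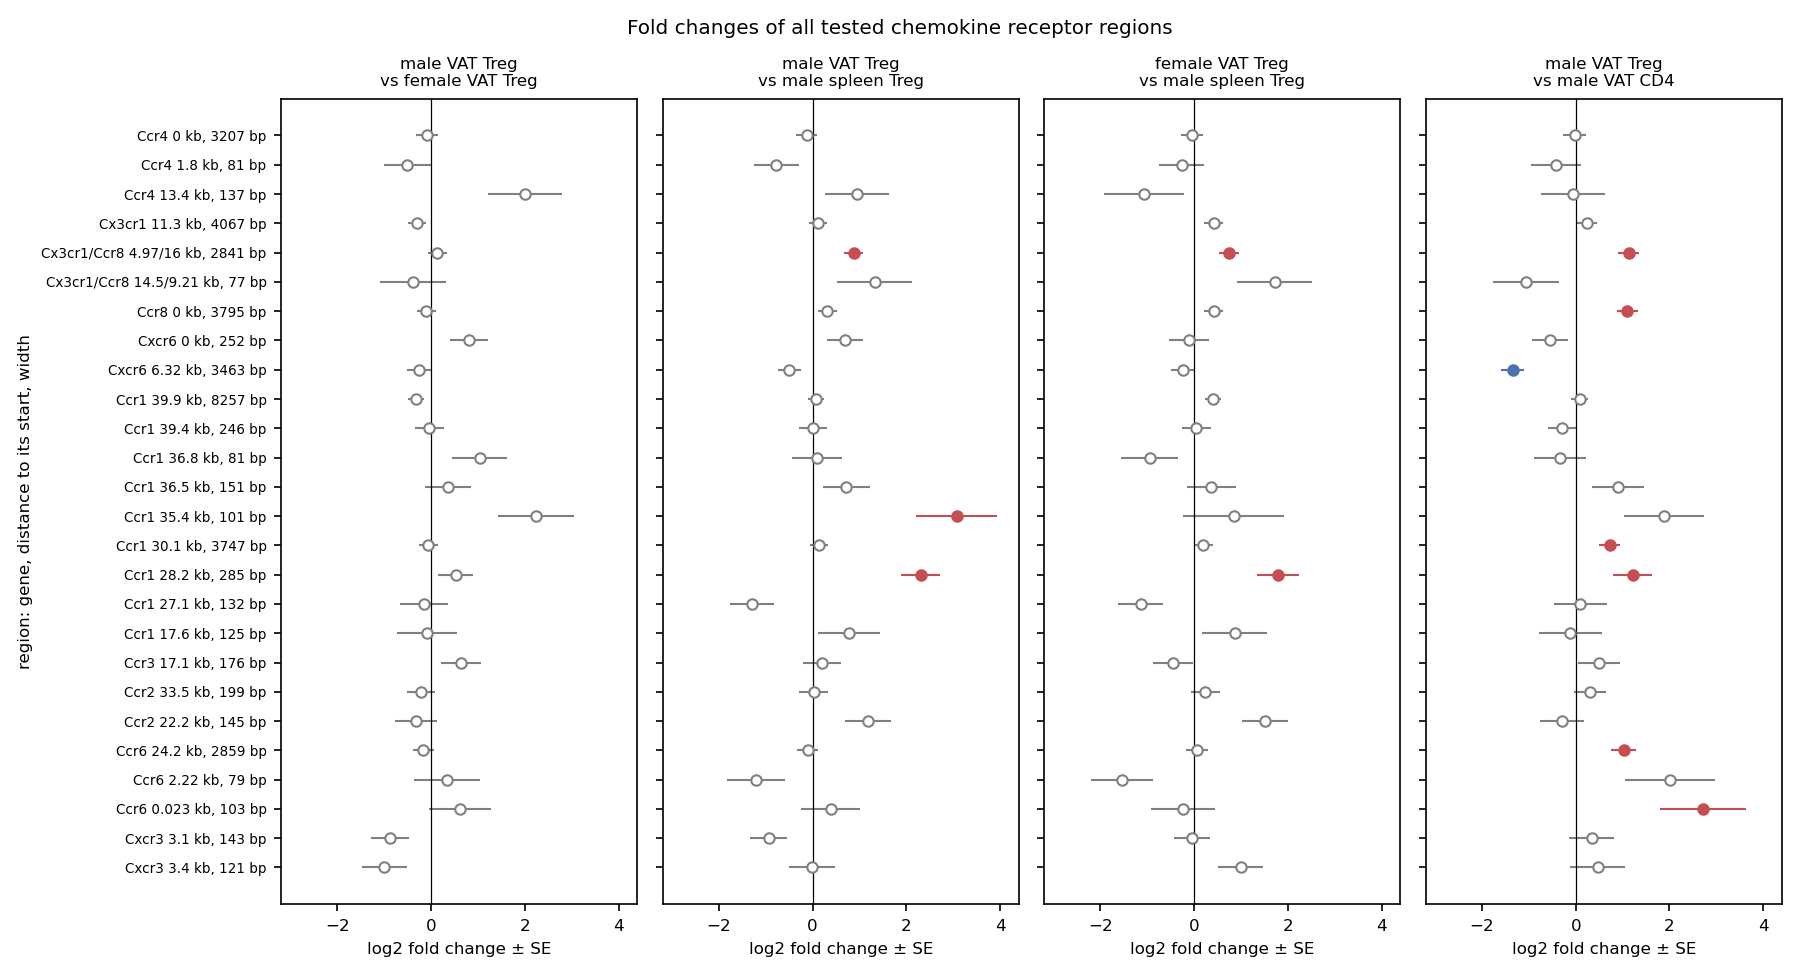
Log2 fold change with its standard error (horizontal axes) of the 26 tested regions (rows, by gene, distance to its start and width) in the 4 comparisons (panels), filled where the edgeR adjusted p was under 0.05. The panel of male against female VAT Tregs has no filled point, and the panel of male VAT Tregs against CD4 cells has 6 to the right of 0 and 1, past Cxcr6, to the left.

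Levels between regions were compared only per length. Averaged over all libraries, the 20 short regions held 6.15 to 25.6 CPM per kb and the 8 long ones 3.07 to 6.96 CPM per kb, so that the ranges overlapped only from 6.15 to 6.96. The densest was the 81 bp region inside Ccr4, at 25.6 CPM per kb. Density went with width, so these values do not rank the regions by how open they were.

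**Figure D4:**
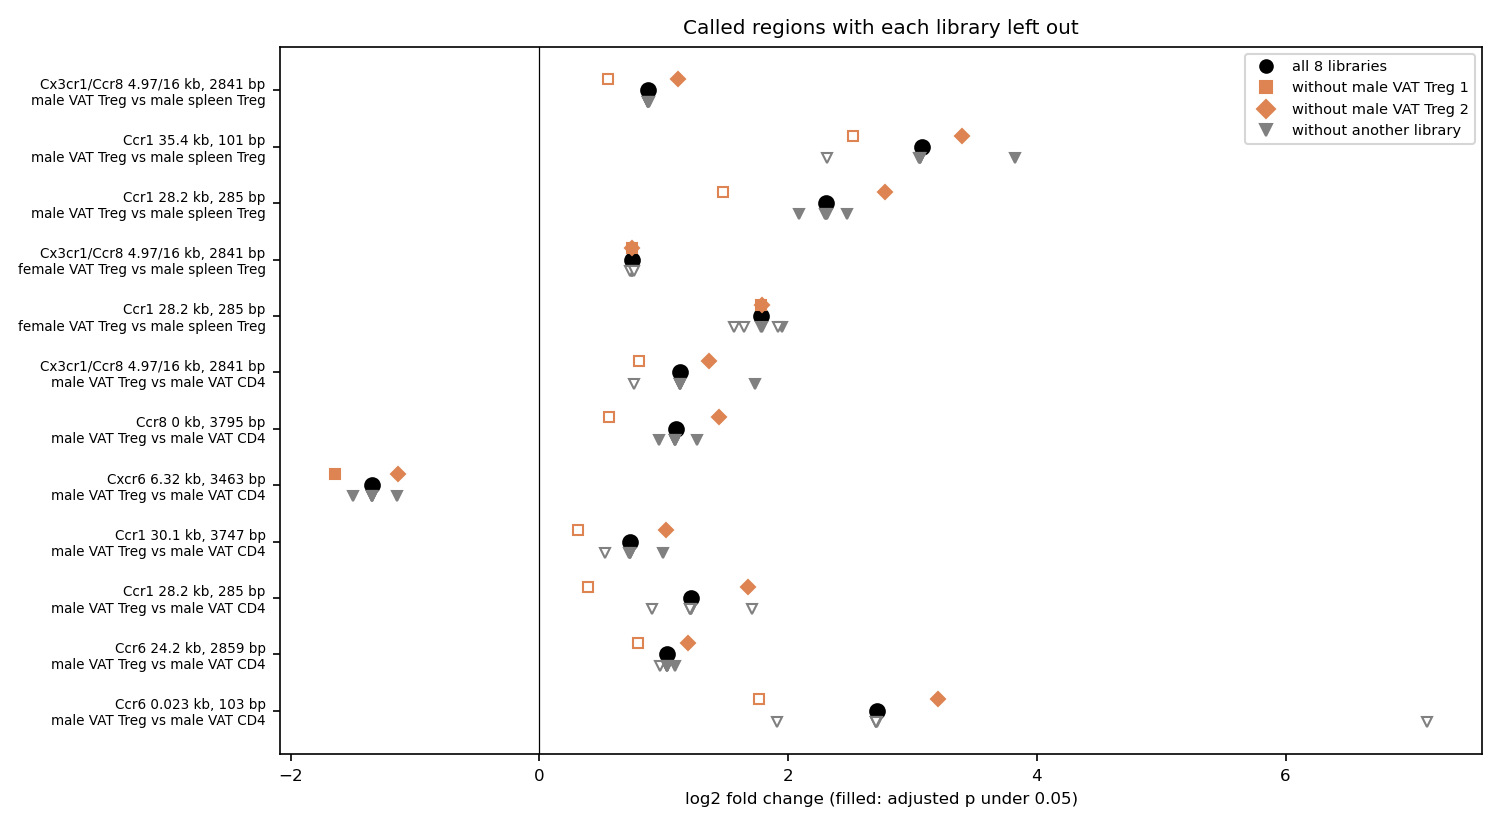
Log2 fold change (horizontal axis) of each call, 1 row per region and comparison, with all libraries and with each library left out in turn, filled where the adjusted p stayed under 0.05. In each row for a region called higher in male VAT Tregs, the fit without male VAT Treg replicate 1 is unfilled, and the Cxcr6 row is filled throughout.

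The ligands of these receptors were described from a list of 20 chemokine genes, of which 9 had 15 regions tested. In male VAT Tregs 4 regions were higher than in CD4 cells, 3 higher than in spleen Tregs and 1 higher than in female VAT Tregs, and none was lower in any comparison. Over all regions tested, 5.18%, 4.64% and 2.04% were higher in these 3 comparisons. This list and those below were chosen with earlier results of these data known. The counts were 1, 0 and 0 without male VAT Treg replicate 1. Against spleen the count was 1 without spleen replicate 1 and 6 without male VAT Treg replicate 2. Against female VAT Tregs it was 0 without either female library and 2 without male VAT Treg replicate 2. Ccl1, which encodes the CCR8 ligand, held 24.5 ± 11.4 CPM (SD, n = 2) in male VAT Tregs against 10.6 ± 1.58 in CD4 cells (log2 fold change 1.23 ± 0.23, edgeR adjusted p = 1.08e-05), and its calls were lost without male VAT Treg replicate 1. Cx3cl1, which encodes fractalkine, held 5.63 ± 0.726 against 0.433 ± 0.612 CPM (3.50 ± 0.55, edgeR adjusted p = 1.09e-07), a call that held without any 1 library.

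The 53 regions of 12 other chemokine receptor genes, 1 of them also a member region, had 6 higher and 4 lower between male VAT Tregs and CD4 cells, 1 higher and 4 lower against spleen Tregs, and 0 higher and 3 lower against female VAT Tregs. Beside these stand 5.18% and 2.51%, 4.64% and 2.09%, and 2.04% and 1.21% of all regions. When male VAT Treg replicate 1 was left out, 0 were higher in each, and 5, 3 and 3 were lower. Against CD4 cells 2 were higher and 6 lower without CD4 replicate 1, and 4 and 2 without CD4 replicate 2, while 3 and 2 were higher without female replicate 1 and female replicate 2. Against spleen 2 were lower without spleen replicate 2, and 2 were higher without male VAT Treg replicate 2. Against female VAT Tregs 0 were lower without either female library or male VAT Treg replicate 2. Ccr7, the receptor for entry into lymph nodes, held 4.55 ± 1.004 CPM in male VAT Tregs and 10.2 ± 0.662 in spleen Tregs at chr11:99162073-99164345 (log2 fold change -1.13 ± 0.26, edgeR adjusted p = 0.00116), without a loss of the call when any 1 library was left out.

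Genes that carry or end the receptors' signal had 149 regions at 22 genes. Between male VAT and spleen Tregs 11 were higher and 5 lower, and between male VAT Tregs and CD4 cells 11 higher and 6 lower. That is 7.38% and 3.36% against spleen, beside 4.64% and 2.09% of all regions, and 7.38% and 4.03% against CD4 cells, beside 5.18% and 2.51%. In the fits that left out 1 library, where the filter was applied anew and 149 to 151 regions were tested, 3 were higher and 11 lower in each of these comparisons without male VAT Treg replicate 1. Against spleen 8 were higher and 1 lower without spleen replicate 1, 6 and 2 without spleen replicate 2, and 16 and 3 without male VAT Treg replicate 2. Against CD4 cells 5 were higher and 4 lower without CD4 replicate 1, 7 and 2 without CD4 replicate 2, and 13 and 3 without male VAT Treg replicate 2. Rgs2, which encodes a protein that shortens G protein signalling, was called in all 4 comparisons. At chr1:144075884-144076492 it held 38.0 ± 15.8 CPM in male VAT Tregs, 13.1 ± 0.208 in female VAT Tregs, 3.04 ± 0.330 in spleen Tregs and 5.51 ± 0.165 in CD4 cells.

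The Rgs2 region was higher in male VAT Tregs than in spleen Tregs (log2 fold change 3.68 ± 0.25, edgeR adjusted p = 1.28e-36) and than in female VAT Tregs (1.55 ± 0.21, edgeR adjusted p = 9.4e-10), and both calls held without any 1 library. Elmo1, part of the Rac activator downstream of chemokine receptors, held 6.51 ± 1.50 CPM in male VAT Tregs and 16.2 ± 1.83 in spleen Tregs (log2 fold change -1.33 ± 0.24, edgeR adjusted p = 7.67e-06), and this call too held without any 1 library.

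Transcription factors that act on these receptors in T cells had 89 regions at 11 genes, with 20 higher and 2 lower between male VAT Tregs and CD4 cells, 18 higher and 2 lower against spleen Tregs, and 5 higher and 3 lower against female VAT Tregs. As shares these were 22.5% and 2.25%, 20.2% and 2.25%, and 5.62% and 3.37%, beside 5.18% and 2.51%, 4.64% and 2.09%, and 2.04% and 1.21% of all regions. Among regions under 1000 bp, 10.3%, 10.2% and 4.68% were higher in the same order. Between female VAT and male spleen Tregs, 9 of the 89 regions were higher and 0 lower. That is 10.1% higher, beside 1.18% higher and 0.197% lower over all regions and 2.07% higher among those under 1000 bp. Because the list was chosen with earlier results of these data known, its shares are a description and no independent support. With male VAT Treg replicate 1 left out, 5 were higher and 2 lower against CD4 cells, 3 and 0 against spleen, and 0 and 3 against female VAT Tregs. Against CD4 cells 12 were higher without CD4 replicate 1, and 12 higher and 0 lower without CD4 replicate 2. Against spleen 12 were higher without spleen replicate 1, and 10 higher and 0 lower without spleen replicate 2. Against female VAT Tregs leaving out female replicate 1 gave 0 higher and 1 lower, leaving out female replicate 2 gave 2 and 0, and leaving out male VAT Treg replicate 2 gave 11 and 0. The fits without a library other than male VAT Treg replicate 1 tested 93 regions. Rora, which encodes a nuclear receptor that also drives Th17 cells, held 11.2 ± 5.01 CPM in male VAT Tregs and 2.32 ± 0.0178 in spleen Tregs at chr9:69339809-69340271 (log2 fold change 2.29 ± 0.31, edgeR adjusted p = 2.13e-10), a call that held without any 1 library. Marker sums of T cells, Tregs, B cells and myeloid cells in male VAT Tregs overlapped those of other groups. So did the sums of CD8 and NK cells and of stromal and endothelial cells. The remaining lists did not overlap. The regions of 4 adipocyte genes summed to 76.6 to 81.7 CPM in male VAT Tregs and 97.3 to 110.0 elsewhere. In the list for eosinophils, basophils and mast cells, Siglecf, Fcer1a and Gata1 had no region. The regions of its other 2 genes, Cpa3 and Kit, summed to 52.0 to 54.2 CPM in male VAT Tregs and 36.0 to 48.9 elsewhere. The part of these marker sums in the results was not tested.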

How the data were processed

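ATAC-seq was read in 8 mouse libraries, 2 per group. Raw region counts for all libraries were deposited in 1 table. The authors also deposited log2 CPM per library, which served 1 alternative. Builds (mm10, GRCm38) and tools are listed in the submitters' processing notes with no roles, the tools being HOMER 4.9, Subread 1.6.2, limma and featureCounts. How regions were called is not given in the sources used here. Table starts count from 0, so 1 was added.

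The 62205 entries were reduced to 46624 distinct regions, and 46512 on chromosomes 1 to 19, X and Y with a gene entered the filter. Of these, edgeR's filterByExpr kept 45709. A quasi-likelihood fit (edgeR 4.0.16, R 4.3.3) with TMM factors of 0.907 to 1.06 took in all 8 libraries with 1 term per group, leaving 4 residual degrees of freedom. Standard errors were derived from each fold change and its F statistic. With 2 libraries per group, ± after CPM is their SD. Alternatives were other scalings, filters and tools (DESeq2 1.42.0, limma 3.58.1), the 2 groups alone, the replicate block and each library left out. The fit was tested on simulated data.

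Every member region is reported, with up to 4 called genes per list and comparison open to naming. Members and lists were chosen with earlier results of these data known. Promoter sequences were matched by symbol for all 9 genes in RefSeq (GRCm38.p6).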

Additional observations from a re-analysis of the deposited data

How the results depend on the processing

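Deviations of same-numbered libraries from their group means correlated at -0.146 to 0.0666 across regions. Whether same-numbered libraries shared mice or sorts is not stated. The correlations cannot decide it, because each deviation also holds what is particular to its own library. With a replicate block, 1199, 2492, 526 and 3054 regions were called for male against female VAT Tregs, male VAT against spleen Tregs, female VAT against spleen Tregs and male VAT Tregs against CD4 cells, and 0, 3, 1 and 5 member regions. No called member region changed sign in any alternative. In the same order, DESeq2 called 506, 1362, 281 and 1860 regions. From the deposited log2 values, limma called 754 and 1923 in the first 2 comparisons. Female VAT against spleen Tregs gave 290 regions with TMM factors from regions under 1000 bp and 1148 with these 2 groups alone.

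Member regions called between female VAT and spleen Tregs numbered 1 (library size alone, TMM on regions of 1000 bp or more, loess, replicate block, limma-voom, deposited log2 values) or 0 (TMM on short regions, DESeq2), not 2. Against CD4 cells they numbered 3 with TMM on short regions and 4 with 2 groups alone, DESeq2 and limma-voom, not 7. Male against female VAT Tregs gave 1 with 2 groups alone.

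With 1 library left out, a lone library being assumed to vary like the other groups, the 4 comparisons gave 410 to 1582, 1605 to 3206, 229 to 837 and 1644 to 3992 regions, and 0 to 0, 0 to 5, 0 to 2 and 1 to 8 member regions. Without male VAT Treg replicate 1, male VAT Tregs had 235 regions higher and 1096 lower than female VAT Tregs, 716 and 993 against spleen, and 844 and 800 against CD4 cells.

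TMM on short regions moved the median of all regions to -0.11, -0.17 and -0.25 in the 3 comparisons of male VAT Tregs with female VAT Tregs, spleen Tregs and CD4 cells, and library size alone to 0.11 in the last. Higher and lower calls were then 463 and 554 (934 and 555 as reported), 1260 and 1493 (2121 and 957) and 1166 and 1917 (2368 and 1146), and 2869 and 672 with library size alone.

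Uncalled values near 0 changed sign. The Ccr2 region farther from its gene, male VAT against spleen, was -0.17 with TMM on short regions, -0.0069 with the replicate block, -0.029 from deposited log2 values and -0.28 to 0.24 with a library left out. For Ccr6 (24.2 kb) it was 0.0083 with loess and -0.34 to 0.066. The Ccr4 promoter region against CD4 cells was 0.11 with library size alone, 0.035 with TMM on long regions, 0.076 with loess and -0.094 to 0.033 with a library left out, where Ccr2 gave -0.010 to 0.50. Against spleen, Ccr3 gave -0.077 to 0.66 and Ccr4 -0.23 to 0.016. Male against female, Ccr4 gave -0.38 to 0.26, Ccr6 -0.40 to 0.0065, Ccr8 -0.63 to 0.25 and Cxcr6 -0.55 to 0.016. Female VAT against spleen, Ccr3 gave -0.72 to 0.019, Ccr4 -0.39 to 0.26, Ccr6 -0.066 to 0.17 and Cxcr6 -0.51 to 0.011. The causes were not tested.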

Other observations

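The regions whose levels followed those of the called receptor regions most closely over the 8 libraries were found by Pearson's r of log2 CPM, as a description without a test. For the region between Cx3cr1 and Ccr8 they were regions at Hdc and Gabpb1 (r = 0.993), Cxcr4 (0.985) and Sik1 (0.983), the best of 29718. For the 285 bp Ccr1 region they were regions at Tnfaip3 (0.985), Galnt2 (0.982) and Isy1 and Cnbp (0.981), the best of 43791. For the region past Cxcr6 they were regions at Pifo (0.986), Gstp1 and Gstp2 (0.974) and Arhgef33 and Sos1 (0.970). For the region upstream of Ccr6 they were regions at Cd74 (0.991), Agfg2 and Irs3 (0.986) and A630001O12Rik (0.982). The points share library depth and the share of reads in short regions, and with 8 points the best of so many regions reach high values.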
